A study of Homo sapiens with 2 samples.

Results

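The genes described here are splicing factors: the SR proteins (symbols starting with SRSF, with the SR-like TRA2A and TRA2B), the heterogeneous nuclear ribonucleoproteins or hnRNPs (symbols starting with HNRNP, and PTBP1, also called hnRNP I), the SF3 subunits with U2AF1 and U2AF2, and the kinases CLK1 to CLK4. They were chosen by symbol among probe sets that name 1 gene. The rule uses no measured value, but earlier results of these data were known when it was set. The choice gave 48 of 19775 genes and 165 probe sets. It comprised 12 SR proteins, 20 hnRNPs, 11 SF3 and U2AF genes, 4 CLK kinases and 1 noncoding transcript, HNRNPD-DT. SRSF2, SRSF9 and HNRNPH2 are not among the members, so the classes are not the full families. A pseudogene with 1 probe set was left out, as were 19 probe sets that name a member together with another gene.

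The data are 2 expression arrays of cultures labelled HL60, a human promyelocytic leukaemia line, grown in RPMI with 10% FBS. In 1 of them the medium held 3 µg/ml eltrombopag for 36 h; eltrombopag, a drug that activates the thrombopoietin receptor, also chelates iron. The other was untreated, and its labels name no vehicle. With 1 array per group no test of the treatment is possible, no replicate error can be given, and every difference below is one between 2 arrays. In such bulk RNA, fewer cells of a type and less RNA per cell cannot be told apart.

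SR proteins bind short exonic enhancer sequences and recruit the spliceosome; their arginine-serine tails are phosphorylated by SRPK and CLK kinases. HnRNPs coat nascent transcripts and often oppose SR proteins at splice sites, while U2AF and SF3 recognise the 3′ splice site and the branch point. Many SR protein and hnRNP genes regulate their own mRNA by including exons with premature stops or by splicing their 3′ untranslated regions, so that transcripts of 1 gene can differ in the parts they contain and in stability.

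Promoter windows were available for 45 of the 48 genes, from RefSeq (GRCh38.p14, 250 bases before to 50 after a start). They are shown for the SR protein gene whose 5 probe sets were all at least 1.5-fold lower (SRSF10), for HNRNPD and the noncoding transcript that starts beside it in the opposite direction, and for the kinase gene with the highest ratio (CLK3, of 2 windows the one with the GC box). Capitals mark matches, on either strand, to the E-box CACGTG, the CCAAT box CCAAT, the GC box GGGCGG, the ETS-type core CTTCCGG and the CG-rich word TCTCGCG, which overlaps itself in SRSF10. The window of SRSF10 is chr1:23980278-23980577 on the minus strand, that of HNRNPD chr4:82373942-82374241 on the minus strand, that of HNRNPD-DT chr4:82374318-82374617 on the plus strand and that of CLK3 chr15:74615586-74615885 on the plus strand.
SRSF10: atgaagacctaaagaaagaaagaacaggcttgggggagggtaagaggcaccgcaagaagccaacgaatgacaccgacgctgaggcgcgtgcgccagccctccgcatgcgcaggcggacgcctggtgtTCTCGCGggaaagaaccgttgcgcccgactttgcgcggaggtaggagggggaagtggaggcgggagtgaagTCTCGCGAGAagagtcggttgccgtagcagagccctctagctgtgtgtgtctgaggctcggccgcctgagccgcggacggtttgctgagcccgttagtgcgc
HNRNPD: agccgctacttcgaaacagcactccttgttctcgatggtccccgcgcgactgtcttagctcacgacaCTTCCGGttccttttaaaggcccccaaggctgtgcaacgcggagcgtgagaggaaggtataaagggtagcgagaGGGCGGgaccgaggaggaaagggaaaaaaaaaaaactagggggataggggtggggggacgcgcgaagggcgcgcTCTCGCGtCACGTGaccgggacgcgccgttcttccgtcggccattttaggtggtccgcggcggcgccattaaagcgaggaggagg
HNRNPD-DT: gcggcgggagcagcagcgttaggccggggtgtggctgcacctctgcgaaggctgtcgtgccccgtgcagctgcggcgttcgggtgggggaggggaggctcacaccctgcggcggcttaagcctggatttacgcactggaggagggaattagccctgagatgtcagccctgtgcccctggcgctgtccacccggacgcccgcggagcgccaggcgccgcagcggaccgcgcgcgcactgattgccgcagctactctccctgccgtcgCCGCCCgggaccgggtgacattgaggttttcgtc
CLK3: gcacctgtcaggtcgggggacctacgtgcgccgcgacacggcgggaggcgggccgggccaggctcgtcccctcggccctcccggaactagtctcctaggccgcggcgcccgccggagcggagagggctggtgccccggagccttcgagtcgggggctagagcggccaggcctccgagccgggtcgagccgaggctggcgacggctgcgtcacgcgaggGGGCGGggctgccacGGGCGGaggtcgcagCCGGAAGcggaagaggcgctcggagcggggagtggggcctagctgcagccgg

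The windows of HNRNPD and HNRNPD-DT lie 76 bases apart. Among the 63 windows of members, the GC box was present in 68.3%, against 45.0% of 35116 windows of all genes, the ETS-type core in 22.2% against 10.3%, the E-box in 17.5% against 7.26%, TCTCGCG in 11.1% against 3.49% and the CCAAT box in 38.1% against 34.6%. The median GC content of members' windows was 65.0%, against 58.7% over all windows. TCTCGCG was found for SRSF10, HNRNPD, HNRNPDL, HNRNPK and HNRNPH3, whose brightest probe sets had log2 ratios of -0.79, -0.16, 0.04, -0.10 and -0.31. A match says only that the letters are there.

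Values are MAS5 signals on a linear scale. A floor was set at a signal of 56.9, the 60th percentile of both arrays, and lower signals were raised to it. A gene takes the value of its probe set with the highest mean signal, the ratio is eltrombopag over untreated, and a gene is called measured where that probe set reached the floor in at least 1 sample. The median log2 ratio of 10314 measured genes was -0.12, with quartiles of -0.37 and 0.11, so a value near -0.12 is the middle of these arrays and not a difference. The spread of log2 ratios between the 2 brightest probe sets of a gene gave an SD of 0.26 for 1 probe set over 4374 genes and of 0.27 over 34 members. This spread lies within 2 arrays and is not an error between cultures.

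The arrays carry a mixed set of identity markers. Of 9 promyelocyte and myeloid markers analysed, 7 reached the floor in each sample, MPO and CEBPE among them, while ELANE and SPI1 did not. The labels also give the cell type as hematopoietic stem; of 5 progenitor markers CD34, KIT, PROM1 and FLT3 lay under the floor in both samples, and GATA2 had 2131 with eltrombopag and 2589 untreated. All 10 plasma cell markers reached the floor in both samples, with a summed signal of 10489 in the eltrombopag sample and 16675 in the untreated sample. The summed signal of the myeloid markers was 3153 with eltrombopag and 4442 untreated. The part of these differences in the results below was not tested.

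Most splicing factor genes differed little. Of 48 members 47 were measured, all of them above the floor in both samples, and SRSF12, an SR protein, was under it in both, at 6.94 with eltrombopag and 14.8 untreated. None of the 47 was at least 2-fold higher in the eltrombopag sample, where 0.65% of all measured genes were, and 1, HNRNPF, was at least 2-fold lower, where 2.27% of all measured genes were. At 1.5-fold, 1 was higher (CLK3; background 3.49%) and 5 were lower (SRSF10, SRSF1, HNRNPF, HNRNPAB and HNRNPD-DT; background 11.8%). A ratio below 0 was found for 31 of the 47, or 66.0%, against 63.4% of all measured genes. The median log2 ratio of the members was -0.10. By gene, the members as a whole thus lay where the rest of the array lay.

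The classes differed in where they lay. The median log2 ratio was -0.17 for 11 SR proteins and -0.19 for 20 hnRNPs, both slightly under the -0.12 of all genes, -0.01 for 11 SF3 and U2AF genes and 0.25 for 4 CLK kinases. Ratios below 0 were found in 8 of 11 SR proteins, 15 of 20 hnRNPs, 6 of 11 SF3 and U2AF genes and 1 of 4 CLK kinases. Relative to the median of all genes, SR proteins lay at -0.05, hnRNPs at -0.07, SF3 and U2AF at 0.11 and CLK kinases at 0.37. Median centring shifts members and all genes nearly alike, so it left these distances at -0.05, -0.07, 0.11 and 0.37 and cannot test them. After quantile normalization and lowess they kept their signs, at -0.07 and -0.07 for SR proteins and -0.11 and -0.08 for hnRNPs. SF3 and U2AF lay at 0.05 and 0.11, and CLK kinases at 0.34 and 0.35. Both scalings shift probe sets of like signal nearly alike, so the kept signs are a weak check. Another use of the probe sets did change a sign. Without those of suffix _x_at or _s_at, 15 hnRNPs lay at 0.13 and 9 SR proteins at -0.33.

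**Figure D1:**
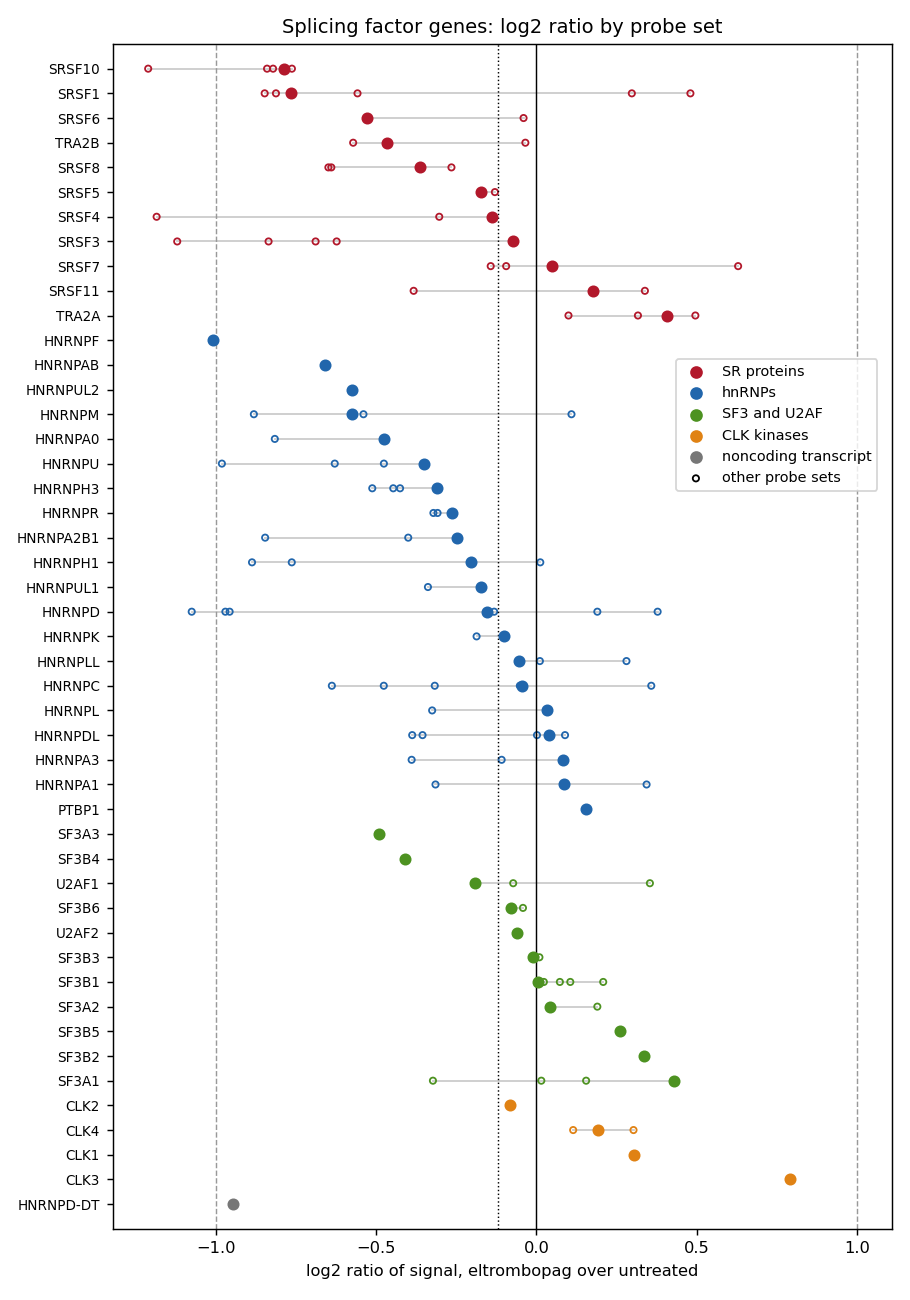
Log2 ratio of signal, eltrombopag over untreated (x axis), for the 47 measured members (rows), coloured by class. Large filled points are the probe set of highest signal, small open points other probe sets that reached the floor in both samples, the dotted line the median of all measured genes (-0.12) and the dashed lines 2-fold. SRSF10 and HNRNPF lie far left, CLK3 far right, and the points of SRSF1, SRSF3 and HNRNPD are spread widely along their rows.

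The picture by probe set was different. Of 138 measured member probe sets, 93 had a ratio below 0 (67.4%, background 62.9%), 5 were at least 2-fold lower (background 2.3%) and 0 at least 2-fold higher (background 0.655%). At 1.5-fold, 30 were lower, or 21.7%, where 12.2% of all 18634 measured probe sets were, and 2 were higher, where 3.76% of all were. Those 30 were 15 of 43 probe sets of SR proteins, 14 of 64 of hnRNPs and the 1 of HNRNPD-DT, with 0 of 24 for SF3 and U2AF. Median log2 ratios by probe set were -0.36 for SR proteins, -0.32 for hnRNPs, 0.01 for SF3 and U2AF and 0.25 for CLK kinases, against -0.12 over all probe sets. Probe sets of 1 gene share its RNA, so these counts are not counts of independent genes.

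The brightest probe set and the others of a gene often differed. In 14 of 16 hnRNP genes with at least 2 probe sets that reached the floor in both samples, the brightest probe set had a higher ratio than the mean of the others. The same held for 6 of 11 SR proteins, 1 of 6 SF3 and U2AF genes and 56.6% of 4374 genes on the array. Ratios also moved with signal. Over all probe sets the median was -0.13 for mean signals up to 250, -0.12 from 250 to 1000, -0.08 from 1000 to 4000 and -0.03 above. For SR proteins these medians were -0.64 (6 probe sets), -0.56 (15), -0.16 (18) and 0.05 (2), and for hnRNPs -0.33 (12), -0.48 (15), -0.26 (30) and -0.04 (4). SF3 and U2AF showed no such order, with -0.02 (4), 0.04 (11), -0.07 (6) and 0.04 (2).

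**Figure D2:**
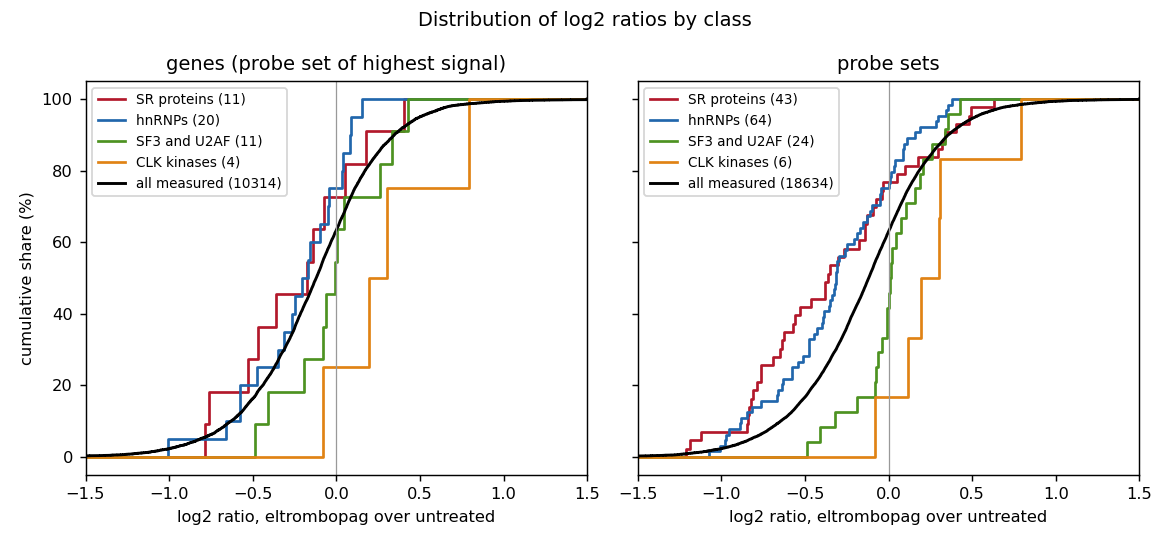
Cumulative share (y axis, %) of log2 ratios, eltrombopag over untreated (x axis), for each class and for all measured genes (left, probe set of highest signal per gene) or probe sets (right); numbers in brackets are n, and values past the axis are drawn at its ends. By gene the SR protein and hnRNP curves run close to the black curve of all genes, by probe set they lie to its left (medians -0.36 and -0.32 against -0.12), and the CLK kinases lie to its right in both.

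SRSF10, an SR protein that acts as a splicing repressor when dephosphorylated, was lower in every probe set measured. Its 5 probe sets had signals of 879, 486, 480, 416 and 320.0 in the eltrombopag sample, against 1516, 859, 859, 705 and 741 in the untreated sample. All 5 were lower with eltrombopag, by 1.72-fold in the brightest, with log2 ratios between -1.21 and -0.76. The ratio of the brightest was -0.73, -0.71 and -0.71 after median centring, quantile normalization and lowess.

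SRSF1, the founding SR protein (ASF/SF2) and a proto-oncogene, was split between probe sets. Its brightest, 211784_s_at, had a signal of 2411 with eltrombopag and 4095 untreated, a log2 ratio of -0.76. The probe sets 208863_s_at, 201742_x_at and 227164_at pointed the same way with log2 ratios of -0.81, -0.56 and -0.85. The opposite direction was given by 226419_s_at, at 2195 with eltrombopag and 1573 untreated (log2 ratio 0.48), and by 229246_at, at 422 with eltrombopag and 343 untreated (0.30). Its measured probe sets averaged -0.37. Where each probe set lies along the transcripts is not given in these sources, so whether the split follows a transcript end was not tested.

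SRSF3, the smallest SR protein, showed almost no difference in its brightest probe set, 208672_s_at, with 6041 in the eltrombopag and 6352 in the untreated sample, a log2 ratio of -0.07. Its sign there turned positive, to 0.04 and 0.01, after quantile normalization and lowess. The other 4 probe sets above the floor were all lower with eltrombopag. The largest difference was in 202899_s_at, which targets a RefSeq mRNA and had 792 with eltrombopag and 1722 untreated, 2.17-fold lower. The remaining 3 gave log2 ratios of -0.84, -0.69 and -0.62, and all its measured probe sets averaged -0.67.

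SRSF4, a large SR protein with a long arginine-serine tail, had the same arrangement. The brightest probe set, 201696_at, had 1011 with eltrombopag and 1114 untreated (log2 ratio -0.14), the next one 543 with eltrombopag and 670.3 untreated (-0.30), and 239512_at had 71.4 with eltrombopag and 162 untreated, 2.27-fold lower. The last lies close to the floor in the eltrombopag sample. SRSF1, SRSF3, SRSF4 and HNRNPD were the 4 of 34 members whose probe sets differed by at least 1 in log2 ratio (11.8%), against 4.09% of 4374 genes. Members had a median of 3 such probe sets and all such genes 2, and a range can only widen with the number compared.

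Among the other SR proteins, SRSF6, a regulator of tau exon choice, had 1178 with eltrombopag and 1701 untreated (log2 ratio -0.53), but -0.04 in its second probe set. SRSF8, a retrocopy-derived SR protein, was lower in 4 of 4 probe sets, with log2 ratios between -0.65 and -0.26. SRSF5 had log2 ratios of -0.17 and -0.13. SRSF7, which also serves as an adaptor for mRNA export, had 0.05, -0.09 and -0.14 in 3 bright probe sets, and its dimmest gave 0.63. SRSF11 had 7364 with eltrombopag and 6508 untreated (0.18), with 0.34 and -0.38 in others, so it has no settled direction. Of 11 SR protein genes with at least 2 probe sets above the floor, 7 were lower in all of them, 1 was higher in all and 3 were mixed. The share of all genes lower in all of their probe sets was not computed. Of all measured probe sets 62.9% had a ratio below 0, but that counts single probe sets and is not the same measure. Whether the 7 are particular to SR proteins was not tested. Over the 34 members of any class with as many, 44.1% were mixed, against 38.6% of 4374 genes on the array. Members had a median of 3 such probe sets and all such genes 2, and more probe sets leave more room for mixed signs.

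The paralogues TRA2A and TRA2B, sequence-specific activators that bind GA-rich exonic enhancers, lay on opposite sides. TRA2A had signals of 2222, 1712, 1705 and 275 in its 4 probe sets above the floor with eltrombopag, against 1677, 1597, 1209 and 221 untreated. All 4 were higher with eltrombopag, with log2 ratios between 0.10 and 0.50. TRA2B had signals of 2399, 1191 and 552 with eltrombopag, against 3315, 1769 and 566 untreated. All 3 were lower, with log2 ratios of -0.47, -0.57 and -0.03. None of these reached 1.5-fold in either direction.

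**Figure D3:**
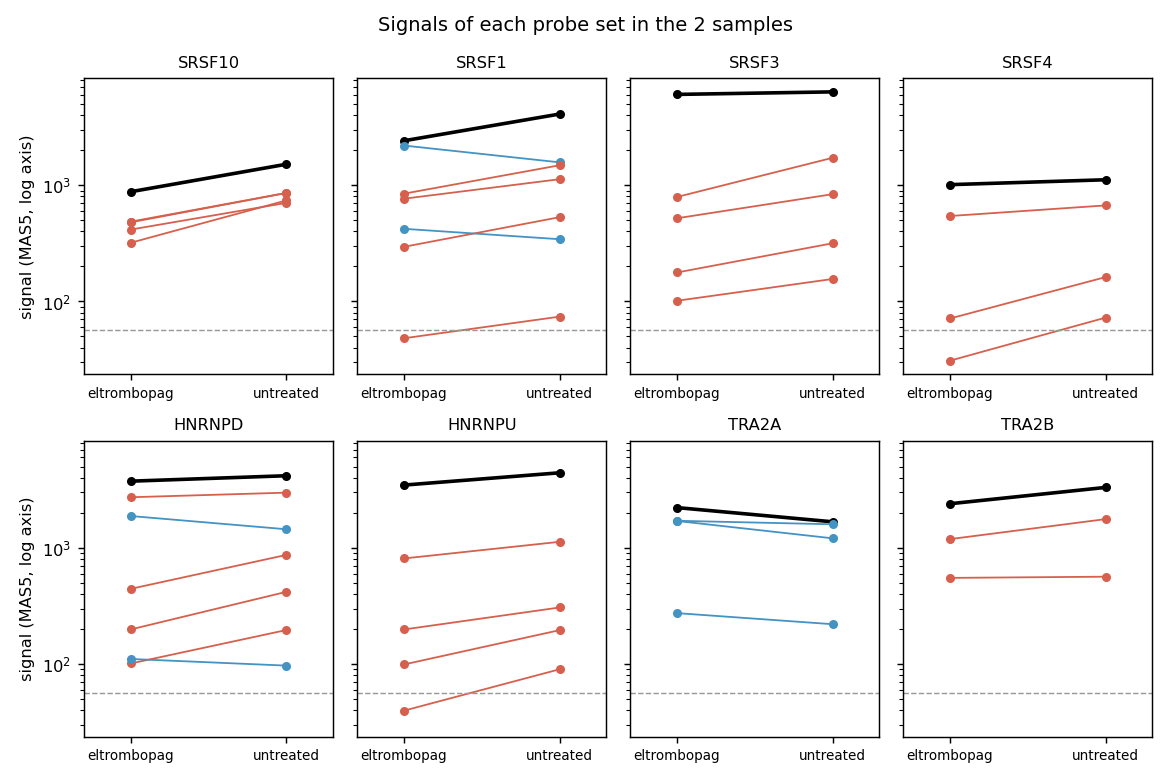
Signals (y axis, log scale) of the measured probe sets of 8 members in the eltrombopag sample (left end of each line) and the untreated sample (right end). Black lines are the probe set of highest signal, red lines other probe sets with a ratio below 0, blue lines others with a ratio above 0, and the dashed line the floor of 56.9. All 5 lines of SRSF10 rise towards the untreated sample, those of SRSF1 and HNRNPD cross in direction, and the black lines of SRSF3 and SRSF4 are nearly flat above steeper red ones.

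Among the hnRNPs, HNRNPF, which binds G-rich tracts, had the largest difference, with 229.7 in the eltrombopag and 462 in the untreated sample, 2.01-fold lower. It rests on 1 probe set with the suffix _s_at, and its log2 ratio of -1.01 became -0.95, -0.89 and -0.88 under the other scalings, short of 2-fold. HNRNPAB, a relative of HNRNPD that binds AU-rich RNA, also had 1 probe set, with 2158 with eltrombopag and 3407 untreated, 1.58-fold lower. HNRNPM had 2098 with eltrombopag and 3125 untreated (log2 ratio -0.57), -0.88 and -0.54 in further probe sets, and 0.11 in one at signals of 92.5 with eltrombopag and 85.7 untreated. HNRNPUL2 had 392 with eltrombopag and 584 untreated (-0.58), and a dim second probe set at 69.7 with eltrombopag and 53.8 untreated pointed the other way. HNRNPA0 had 546 with eltrombopag and 759 untreated (-0.47), and -0.82 in the other one that reached the floor in both samples.

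HNRNPD, also known as AUF1, which binds AU-rich elements and speeds decay of the mRNAs that carry them, had the widest spread of any member, 1.45 between its extreme log2 ratios. The brightest probe sets, 221481_x_at and 200073_s_at, had 3751 and 2728 with eltrombopag, against 4177 and 2989 untreated, with log2 ratios of -0.16 and -0.13. A group of 3 dimmer ones, 209330_s_at, 221480_at and 229129_at, had 445, 199 and 101 with eltrombopag, against 871, 419 and 197 untreated. Their log2 ratios were -0.97, -1.07 and -0.96. In 213359_at the signal was 1881 with eltrombopag and 1447 untreated (0.38), and in 239040_at 111 with eltrombopag and 97.2 untreated (0.19). HNRNPD-DT, the divergent noncoding transcript whose promoter window is printed above, had 69.97 with eltrombopag and 134.9 untreated, 1.93-fold lower, close to the floor.

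HNRNPU, a scaffold protein that binds chromatin-associated RNA, was lower in all 4 probe sets that reached the floor in both samples, by 0.35 to 0.98 on the log2 scale. Its brightest probe set had 3470.3 with eltrombopag and 4428 untreated. HNRNPA2B1, a core hnRNP, was lower in 3 of 3, with log2 ratios of -0.25, -0.85 and -0.40; the second, at 2790.2 with eltrombopag and 5015 untreated, targets a RefSeq mRNA. HNRNPH3 was lower in 4 of 4 (-0.51 to -0.31) and HNRNPR in 3 of 3 (-0.32 to -0.26). HNRNPH1, a close relative of HNRNPF, had 4578 with eltrombopag and 5274 untreated (-0.20) and 0.01 in its other bright probe set, with -0.76 and -0.89 in dimmer ones.

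The remaining abundant hnRNPs lay close to 0 in their brightest probe sets. HNRNPA1, which opposes SRSF1 in splice site choice, had 3748 with eltrombopag and 3534 untreated (log2 ratio 0.08), with 0.34 and -0.31 in others. HNRNPC, which competes with U2AF2 at uridine tracts, had -0.05 in its brightest probe set and a range from -0.64 to 0.36. HNRNPK and HNRNPUL1 were slightly lower in both of their probe sets, with brightest ratios of -0.10 and -0.17. HNRNPL, HNRNPDL and HNRNPA3 had 0.03, 0.04 and 0.08, each with a lower value in another probe set, of -0.33, -0.39 and -0.39. PTBP1, a repressor of many alternative exons, had 2561 with eltrombopag and 2299 untreated in the only probe set measured for it here (0.16).

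HNRNPLL, an RNA-binding protein known for controlling CD45 exon choice in lymphocytes and for its part in plasma cells, had 517 with eltrombopag and 536.0 untreated (log2 ratio -0.05), with 0.28 and 0.01 in its other probe sets. The 10 plasma cell markers had a median log2 ratio of -0.82, between -2.37 for IRF4 and -0.07 for XBP1. The sign of HNRNPLL changed under another scaling, as did those of HNRNPC, SRSF3, SF3B3, SF3B6 and U2AF2. These 6 were the only members whose sign did so under median centring, quantile normalization or lowess. None of the 6 had a log2 ratio over 0.08 in size. In all, 7 of 16 hnRNP genes with at least 2 probe sets above the floor were lower in all of them. Of the others 0 were higher in all and 9 were mixed, where 38.6% of genes on the array were mixed. These shares are not matched for the number of probe sets per gene, so the 9 cannot be read as an excess. For the genes lower in all, too, the share over all genes was not computed.

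The branch point machinery had genes on both sides of 0, between -0.49 and 0.43. SF3B1, the largest SF3b subunit, which holds the branch helix, had 4424 with eltrombopag and 4408 untreated (log2 ratio 0.01), and its other 4 probe sets lay between 0.02 and 0.21. SF3B3 and SF3B6 had -0.01 and -0.08. SF3B2 had 1083 with eltrombopag and 859 untreated (0.33) and SF3B5 2272 with eltrombopag and 1896 untreated (0.26). SF3B4 was at -0.41. In the SF3a trimer, SF3A3 had 459.6 with eltrombopag and 645 untreated (-0.49), SF3A2 lay at 0.04, and SF3A1 at 0.43 in its brightest probe set (907 with eltrombopag, 674 untreated) but at 0.02, 0.16 and -0.32 in others. U2AF1, which contacts the AG at the 3′ splice site, had log2 ratios of -0.19 (brightest probe set), 0.35 and -0.07, and U2AF2, which binds the polypyrimidine tract, -0.06.

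The CLK kinases, which phosphorylate SR proteins in the nucleus and release them from speckles, were higher in 3 of 4 genes. Of all measured genes, 63.4% had a ratio below 0. CLK3 had 500.0 with eltrombopag and 289 untreated, 1.73-fold higher, the highest ratio of any member. It rests on 1 probe set with the suffix _s_at, and a second lay under the floor in both samples, at 29.98 with eltrombopag and 38.95 untreated. CLK1 had 1494 with eltrombopag and 1210 untreated (log2 ratio 0.30) in its only probe set. CLK4 was higher in 3 of 3 probe sets, with log2 ratios of 0.19, 0.30 and 0.11. CLK2 had 1327 with eltrombopag and 1405 untreated (-0.08), also in its only probe set.

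Other splicing genes, from lists outside the choice of members, gave a frame for these values. Of 31 genes for snRNP, Sm and LSM proteins, which form the core particles of the spliceosome, 22 had a ratio below 0 (71.0%, background 63.4%). In this list 1 gene was at least 2-fold lower (background 2.27%), and the median was -0.26. The largest differences were those of LSM4, 2.24-fold lower (800 with eltrombopag, 1795 untreated), SNRNP25 (log2 ratio -0.76) and SNRPE (-0.74). The PRP19 complex and step helicases had a median of 0.06 over 17 genes, with SLU7, a second-step factor, at 0.80, XAB2 at 0.76 and BCAS2 at -0.40; a second SLU7 probe set gave 0.19. None of these 17 was past 2-fold, where 0.65% of all measured genes were higher and 2.27% lower by as much.

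The SR protein kinases outside the CLK family had a median of -0.10 over 4 genes, with SRPK1 at -0.19, SRPK2 at 0.04 and PRP4K at -0.37. Their other probe sets gave -0.44 for SRPK1, 0.04, -0.27 and -0.67 for SRPK2, and 0.22 and -0.72 for PRP4K. Branch point and 3′ splice site factors other than members had a median of 0.08 over 8 genes. Among them U2AF1L4 was at 0.65, ZRSR2, the minor spliceosome counterpart of U2AF1, at 0.61 and RBM17 at -0.28. Further probe sets gave 0.53 for ZRSR2, and -0.52 and -0.05 for RBM17. Other splicing regulators had a median of -0.06 over 32 genes, with RBFOX2 at -0.70, MBNL3 at -0.68 and MATR3 at -0.52. Further probe sets gave -0.49 for RBFOX2, but only -0.09 and -0.26 for MBNL3. Exon junction and nonsense-mediated decay genes, which degrade the premature-stop isoforms of SR proteins, had a median of -0.21 over 8 measured genes. In that list EIF4A3, the helicase that anchors the junction complex, had 466 with eltrombopag and 799 untreated, 1.71-fold lower, RBM8A was at -0.66 with probe sets from -1.06 to 0.92, and SMG9 at 0.42. By the brightest probe set, none of the genes in these last 4 lists was past 2-fold. Of all measured genes 0.65% were higher and 2.27% lower by as much. Dimmer probe sets did pass it, at -1.06 for RBM8A and at 1.34 for MBNL2, whose brightest gave -0.24.

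**Figure D4:**
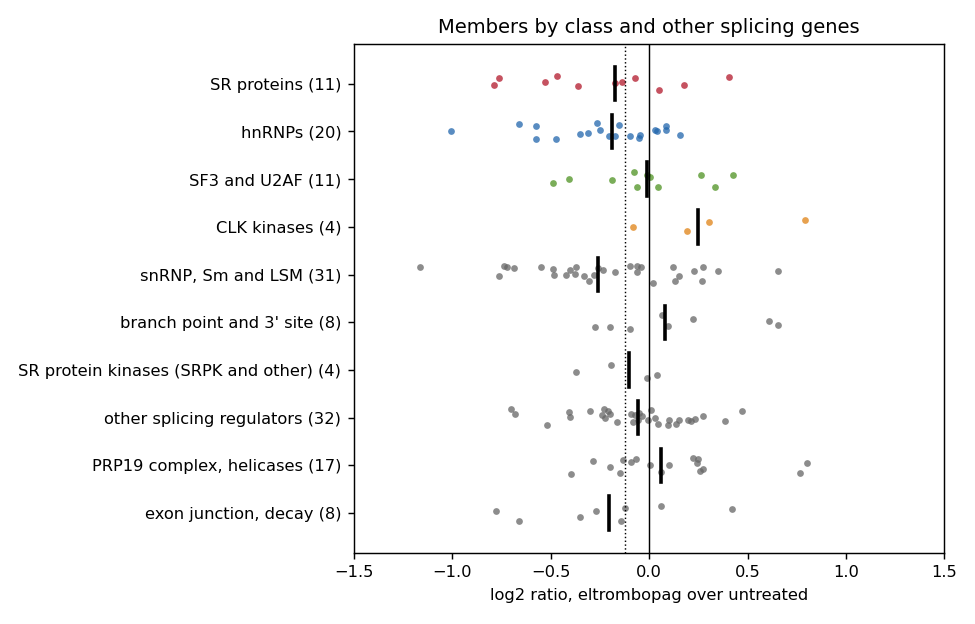
Log2 ratio, eltrombopag over untreated (x axis), of the measured genes of each member class (coloured) and of 6 other lists of splicing genes (grey), 1 point per gene with vertical jitter; thick bars are medians and the dotted line is the median of all measured genes (-0.12). The snRNP list lies lowest (median -0.26) and the CLK kinases highest (0.25), and every list spans both sides of 0.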

How the data were processed

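The authors deposited 1 table with a linear signal intensity per probe set and sample. The submitters' processing notes name MAS5, with no version, and give neither detection calls nor a scaling target. Per the labels' protocols, Trizol was used for extraction and some 5 µg of total RNA went into biotinylated cRNA. Precision is limited by having 1 array per group.

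Of 54613 probe sets, 41091 named 1 gene by the platform annotation, 1801 several and 11721 were not listed; 41037 of the first were found in the RefSeq gene table (GRCh38.p14), which changed 0 symbols. Log2 ratios were computed in Python 3.11.15 (pandas 2.3.3, statsmodels 0.14.6) from values as deposited, with the floor and the choice of probe set given in the report, and tested on simulated data. Fold changes with no test were counted at 2-fold and 1.5-fold. The members and lists were chosen with earlier results of these data known. Values were given for members past 2-fold in any measured probe set, the 10 highest and 10 lowest, those whose probe sets differed by 1 in log2 ratio and the brightest of each class; the other members are given briefly. Up to 3 genes per other list were named by size. The motifs, and the genes whose promoters are printed, were chosen after values were seen. Alternatives were 3 other scalings, 3 other floors, 3 other uses of probe sets, a stricter filter (floor reached in both samples), and thresholds of 1.5-fold and 3-fold. Some genes of the lists were not analysed here.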

Additional observations from a re-analysis of the deposited data

How the results depend on the processing

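Under the 12 alternatives, the median log2 ratio of members stayed between -0.19 and -0.01, and its distance from the median of all genes between -0.07 and 0.04, so neither direction of that distance is settled. Quantile normalization moved the median of all genes by 0.11, to -0.01. No member was 2-fold higher under any alternative at that threshold; at 1.5-fold 1 was. The count of 2-fold lower members was 1 as reported, 0 after median centring, quantile normalization, lowess, and when _x_at and _s_at probe sets were dropped (which leaves 33 members and drops HNRNPF), 0 at 3-fold, 2 without a floor (SRSF12, under the floor, being the second), 5 at 1.5-fold and 5 with every probe set counted, those of SRSF10, SRSF3, SRSF4, HNRNPD and HNRNPF. Without these suffixes the median of hnRNPs was 0.00 and that of SR proteins -0.47. Of 224 values of the 26 members named by rule, 212 moved by less than 0.26, the SD of 1 probe set. The other 12 moved by more, all through another use of the probe sets. Many of the 212 could not move, so their number is no measure of stability. Other floors and the stricter filter changed none of the values they kept, and median centring shifts all values by a constant. SRSF11, HNRNPM, HNRNPD and HNRNPH1 changed sign without the 2 suffixes, to -0.38, 0.11, 0.38 and 0.01. SRSF3 did so under quantile normalization and lowess. With the mean over probe sets per gene, the median was -0.36 for SR proteins and -0.28 for hnRNPs. No paired analysis was possible because each group holds 1 sample.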
